A study of Mus musculus with 28 samples.

Results

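The tibialis anterior (TA) transcriptomes of a pair of mouse models of centronuclear myopathy (CNM) were set against each other to ask where the disease effect of the *Dnm2* mutation differs from that of the loss of *Bin1*. The placebo mice of both cohorts were used, 16 of the 28 mice of the series in 4 groups of 4, and the 12 tamoxifen-treated mice entered no result described here except as an alternative fit. The Dnm2SL mice carry the S619L point mutation on 1 allele of *Dnm2* (*Dnm2*S619L/+) and stand against the WT mice 1 to 4 of their own cohort. Bin1KO mice (*Bin1*mck-/-) lack *Bin1* in skeletal muscle, where the muscle creatine kinase promoter drives the recombinase, and stand against the WT mice 5 to 8 of the other cohort. All 16 mice were C57BL/6N, received placebo in the diet and were sampled at 8 weeks of age. For each gene, the log2 fold change of Bin1KO against WT was subtracted from that of Dnm2SL against WT, and this difference of disease effects is positive where a gene was higher, or less reduced, under the *Dnm2* mutation. Cohort and library protocol change together, so the cohorts were never compared directly and levels are read within a cohort only. The subtraction removes effects of protocol or sex only where they act equally on disease and WT mice. Where they act unequally, they cannot be told apart from a difference between the models.

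CNMs are inherited muscle disorders with weakness and misplaced nuclei in the fibers. *DNM2* encodes dynamin 2, a large GTPase that cuts membrane tubules, and mutations that cause CNM raise its activity. *BIN1* encodes amphiphysin 2, which bends membranes, shapes the T-tubules that carry the action potential into the fiber, and binds dynamin 2. T-tubules and the sarcoplasmic reticulum meet at the triad, where the dihydropyridine receptor couples excitation to calcium release.

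Libraries of polyadenylated RNA were strand-specific, and started in the Dnm2 cohort from 300 ng RNA, fragmented for 2 min, and in the Bin1 cohort from 350 ng, fragmented for 8 min. Reads on genes ranged from 15586333 to 109710886 per mouse in the Dnm2 cohort and from 29063032 to 35136327 in the Bin1 cohort. Of the 55359 genes in both tables, 15301 passed the filter on low counts and were tested together with the quasi-likelihood test of edgeR. *Acta1*, *Ckm*, *Myh4* and the other markers of fast muscle fibers summed to between 76950 and 137000 CPM (reads scaled to library size, with TMM factors) in every mouse. The labels give no sex. *Xist* reads were present in 2 of the 4 Dnm2SL mice, 2 of their 4 WT mice and all 8 mice of the Bin1 cohort, so the disease and WT groups of a cohort were alike in this and the cohorts were not. With a term for sex in the Dnm2 cohort 84 of the 86 calls described below were made again, and with its *Xist* libraries alone, 2 mice against 2, 23 were, and 0 of the 86 differences changed sign.

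Both models changed many genes, and a smaller number passed the test of the difference between them. The Dnm2SL mice differed from WT in 3770 of the 15301 genes tested (24.6%), 1921 higher (12.6%) and 1849 lower (12.1%), at an edgeR adjusted p under 0.05. The Bin1KO mice differed in 1519 (9.93%), 958 higher (6.26%) and 561 lower (3.67%). The difference of disease effects passed the same threshold for 86 genes (0.562%), 39 higher (0.255%) and 47 lower (0.307%) in the Dnm2 effect, and 2498 genes had an unadjusted p under 0.05. This count moved with single mice and with the tool. It lay between 21, without WT mouse 7 of the Bin1 cohort, and 313, without Dnm2SL mouse 3, and was 627 with DESeq2. Over all genes the median difference was -0.02 on the log2 scale.

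For 67 of the 86 genes the log2 fold changes had opposite signs, called or not, as seen in the plot of both disease effects. Both effects were called for 7 of these 67. Choosing genes by a large difference favours opposite signs, so the count of 67 is no separate result. Of the other 19, 18 moved further in the Dnm2SL mice and 1, *Dpt*, moved further in the Bin1KO mice. The Dnm2 effect alone was called for 65 of them, the Bin1 effect alone for 12 and both for 9. Among the 808 genes called in each model, 800 changed in the same direction (508 higher, 292 lower) and 8 in opposite directions. A call in 1 model only seldom came with a called difference, since 2897 of the 2962 genes called in the Dnm2SL mice alone and 699 of the 711 called in the Bin1KO mice alone did not pass the test of the difference. Across the 15301 genes, which are not independent replicates, the effects had Pearson's r of 0.581 and Spearman's rho of 0.497. The 95% interval of the difference had a median width of 1.096 on the log2 scale, which sets what 4 mice a group could separate.

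**Figure D1:**
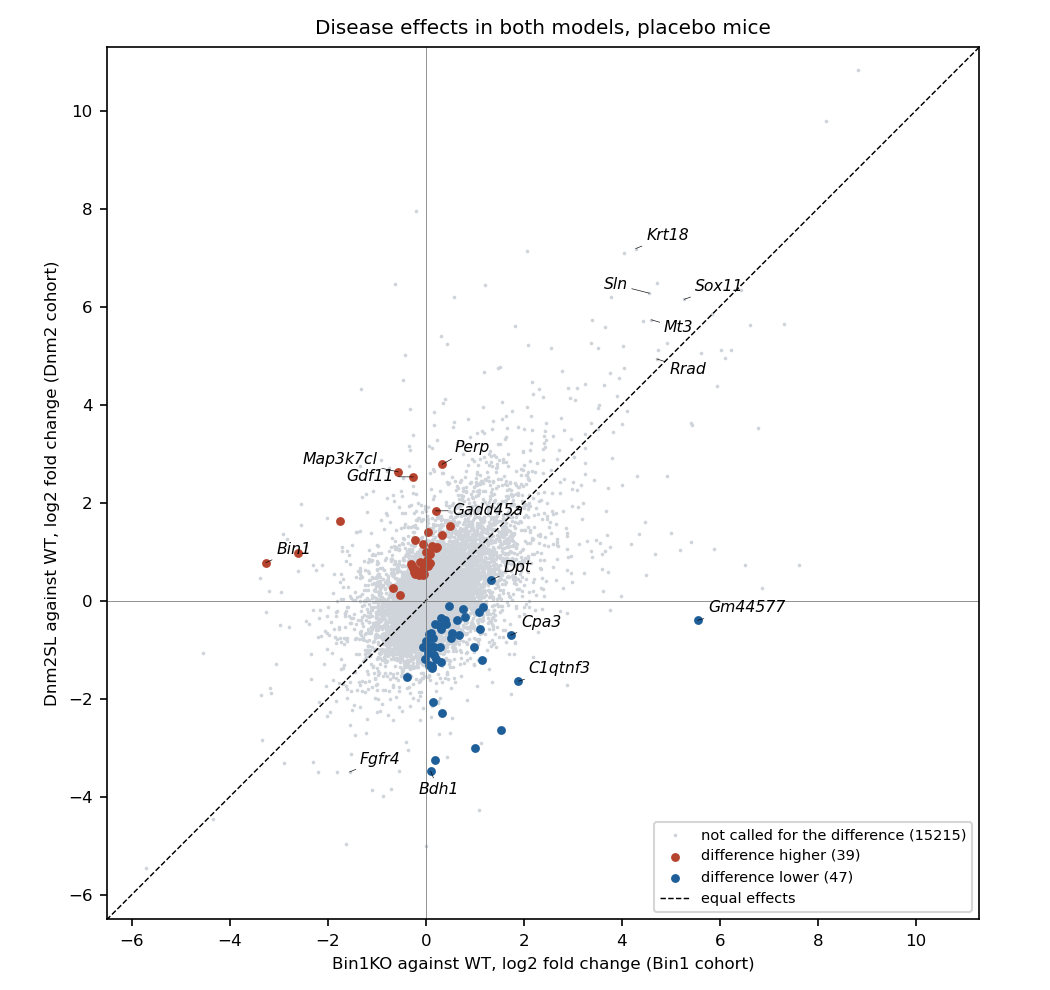
Log2 fold change of Bin1KO against WT (x axis, Bin1 cohort) and of Dnm2SL against WT (y axis, Dnm2 cohort) for the 15301 genes tested, with the 39 genes whose difference was called higher in red, the 47 called lower in blue and the dashed line marking equal effects. The called genes lie mostly above or below the middle of the plot with a Bin1 effect near 0, while *Rrad*, *Sox11*, *Mt3*, *Sln* and *Krt18* rose in both models.

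The difference with the smallest p was that of *Bin1*. *Bin1* (ENSMUSG00000024381) stood at 765, 1012, 700 and 852 CPM in the Dnm2SL mice and at 469, 488, 493 and 496 CPM in their WT mice. In the Bin1KO mice it was at 61.8, 51.4, 52.0 and 58.6 CPM, with 547, 519, 531 and 555 CPM in WT. The groups did not overlap in either cohort, and the gene moved in opposite directions. It rose by 0.77 on the log2 scale under the *Dnm2* mutation (edgeR adjusted p = 1.59e-04) and had a log2 fold change of -3.27 in the Bin1KO mice (adjusted p = 6.33e-12), a difference of 4.04 (95% interval 3.72 to 4.36, adjusted p = 2.60e-11). The fall checks the labels of the Bin1KO mice, and the reads that remained are not assigned to exons or cell types by counts per gene.

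Next to *Bin1* on the same strand lies *Gm44577* (ENSMUSG00000109232), annotated in GENCODE M21 as a long noncoding RNA of a bidirectional promoter. *Gm44577* overlaps the protein-coding gene *Gm35060* and the pseudogene *Gm20136*, both on the opposite strand, and which gene shares its promoter was not tested. *Gm44577* was at 9.34, 5.84, 8.42 and 7.46 CPM in the Bin1KO mice and at 0.0836, 0.0347, 0.350 and 0.181 CPM in their WT mice. In the Dnm2 cohort all 8 mice lay between 0.0440 and 0.415 CPM. The RNA rose in the Bin1KO mice alone among the groups, by a log2 fold change of 5.55 (edgeR adjusted p = 2.21e-06), and the difference of effects was -5.95 (95% interval -7.33 to -4.57, adjusted p = 4.02e-04). *Bin1* and *Gm44577* were called in every fit that left out 1 mouse.

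*Dnm2* itself (ENSMUSG00000033335) did not separate the models. It was at 66.8, 67.5, 60.2 and 63.1 CPM in the Dnm2SL mice against 61.2, 61.9, 59.5 and 63.0 CPM in WT, and at 82.1, 77.0, 70.2 and 73.6 CPM in the Bin1KO mice against 69.4, 71.2, 73.7 and 62.2 CPM in WT. These groups overlap in both cohorts, and the difference was -0.06 (95% interval -0.29 to 0.17, edgeR adjusted p = 0.825). A point mutation does not show in counts per gene. Among the 40 tested genes of membrane remodelling and the myotubularins, 8 rose and 4 fell in the Dnm2SL mice. There, 12.6% of all genes tested rose and 12.1% fell. In the Bin1KO mice 5 of the 40 rose and 2 fell, where 6.26% and 3.67% of all genes did. *Bin1* was the 1 member called for the difference, and the median difference of the list was -0.06.

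**Figure D2:**
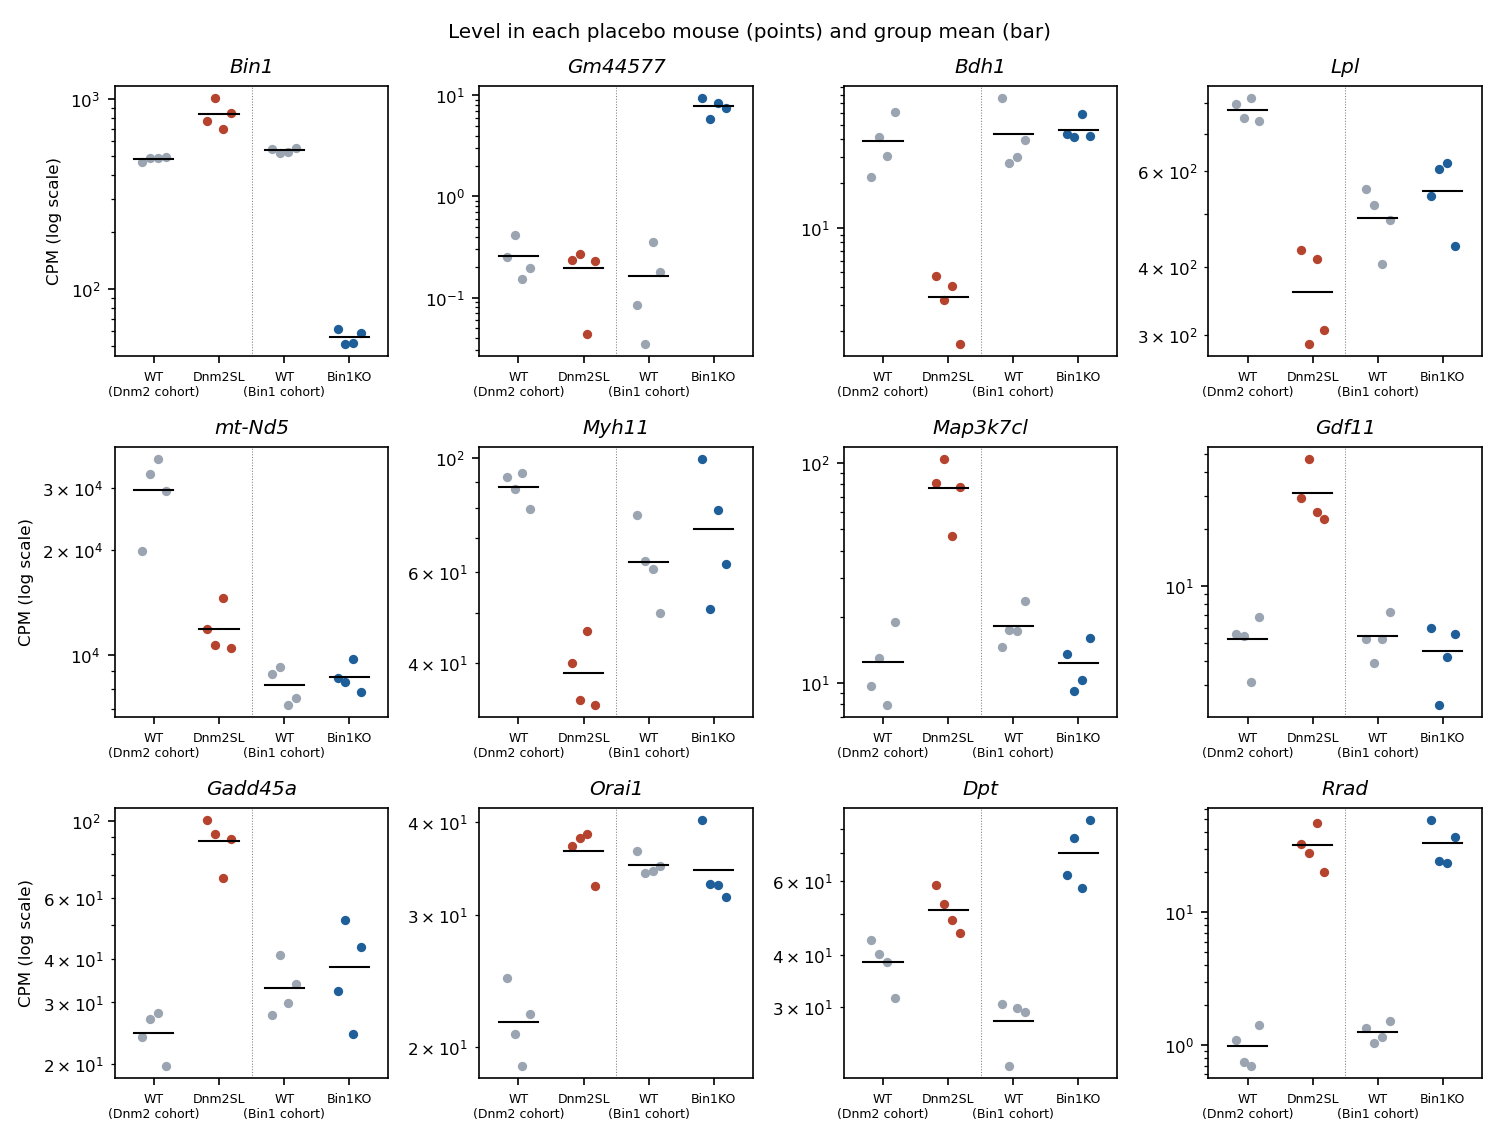
CPM on a log scale in each placebo mouse (points) and group mean (bar) for 12 genes, with the WT and Dnm2SL mice of the Dnm2 cohort left of the dotted line and the WT and Bin1KO mice of the Bin1 cohort right of it. *Bdh1*, *Lpl*, *mt-Nd5*, *Myh11*, *Map3k7cl*, *Gdf11*, *Gadd45a* and *Orai1* separate disease from WT mice in the Dnm2 cohort alone, *Gm44577* in the Bin1 cohort alone, and *Bin1*, *Dpt* and *Rrad* in both.

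Genes for the use of fatty acids and ketone bodies, listed with regulators such as *Esrra* and *Ppara*, made up the group with the most calls. Of 42 tested members of this list, 19 fell and 2 rose in the Dnm2SL mice, where 12.1% and 12.6% of all genes did. In the Bin1KO mice 7 rose and 0 fell, where 6.26% and 3.67% of all genes did. The difference was called lower for 7 members and higher for 0, where 0.307% of all genes were called lower. It was negative for 40 of the 42, and for 8041 of all 15301 genes. The median effects were -0.38 in the Dnm2SL mice and 0.15 in the Bin1KO mice, and the median difference was -0.57, beside -0.02 for all genes. With an unadjusted p under 0.05, 27 members were lower and 1 was higher.

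*Bdh1* (ENSMUSG00000046598), the mitochondrial enzyme that interconverts the ketone bodies hydroxybutyrate and acetoacetate, had the largest difference of the list. It was at 4.74, 3.27, 4.05 and 1.63 CPM in the Dnm2SL mice and at 22.0, 41.4, 30.8 and 60.7 CPM in WT. In the Bin1KO mice it was at 42.9, 41.0, 58.7 and 42.1 CPM, inside the 27.4 to 75.4 CPM of their WT mice. Every Dnm2SL mouse was below every WT mouse, and the Bin1 cohort overlapped. The log2 fold changes were -3.48 and 0.10, and the difference was -3.58 (95% interval -4.76 to -2.40, edgeR adjusted p = 0.0148). *Gm15743*, annotated on the strand opposite *Bdh1* and inside it, was also lower, at 0.0858, 0, 0 and 0.0759 CPM in the Dnm2SL mice against 0.205 to 0.589 CPM in WT, with a difference of -4.17 (adjusted p = 0.0382) that rests on a few reads a mouse in the Dnm2SL group.

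*Lpl* (ENSMUSG00000015568), the lipase that frees fatty acids from circulating triglycerides, was at 430, 289, 414 and 306 CPM in the Dnm2SL mice and at 795, 749, 815 and 740 CPM in WT. In the Bin1KO mice it was at 539, 604, 621 and 436 CPM, against 555, 519, 405 and 488 CPM in WT. The Dnm2SL mice all lay below WT, and the Bin1 cohort overlapped. The difference was -1.27 (95% interval -1.69 to -0.85, edgeR adjusted p = 0.0143). *Etfdh* (ENSMUSG00000027809), which passes electrons from the acyl-CoA dehydrogenases to ubiquinone, was at 144, 140, 169 and 147 CPM in the Dnm2SL mice and at 228, 256, 281 and 257 CPM in WT, while the Bin1KO mice (189 to 243 CPM) and their WT mice (173 to 222 CPM) overlapped. Its difference was -0.91 (95% interval -1.23 to -0.60, adjusted p = 0.0143).

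The other 4 members called were *Acadvl*, *Slc25a20*, *Fabp3* and the nuclear receptor gene *Esrrb*. *Acadvl* (ENSMUSG00000018574), the dehydrogenase of the first step of long-chain fatty acid oxidation, was at 332, 344, 409 and 332 CPM in the Dnm2SL mice against 534, 580, 617 and 546 CPM in WT, and its difference was -0.76 (edgeR adjusted p = 0.0363). *Slc25a20* (ENSMUSG00000032602), which carries acylcarnitines into mitochondria, moved in opposite directions that were each called. It was at 74.6, 84.9, 81.5 and 84.6 CPM in the Dnm2SL mice against 93.7, 112, 121 and 100 CPM in WT, and at 131, 136, 119 and 112 CPM in the Bin1KO mice against 104, 102, 81.9 and 94.3 CPM in WT. The genotypes separated fully in each cohort, and the difference was -0.77 (95% interval -1.07 to -0.47, adjusted p = 0.0233).

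*Fabp3*, the heart-type fatty acid binding protein, fell in the Dnm2SL mice (79.7 to 151 CPM against 148 to 219 CPM in WT) and was at 177 to 218 CPM against 96.4 to 155 CPM in WT in the Bin1 cohort, a difference of -1.21 (edgeR adjusted p = 0.0397). *Esrrb*, an orphan nuclear receptor of the estrogen-related family, was at 3.57 to 4.66 CPM against 9.05 to 14.2 CPM in WT in the Dnm2 cohort, with a difference of -1.51 (adjusted p = 0.0197). Of the related genes outside the list, *Plin3*, which coats lipid droplets, had a difference of -1.47 (adjusted p = 0.0397) and *Acot11*, an acyl-CoA thioesterase, one of -1.05 (adjusted p = 0.0261). In the Dnm2SL mice both lay below WT without overlap.

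*Acss1*, a mitochondrial acetyl-CoA synthetase, differed through the other model. It was at 48.6, 50.02, 31.6 and 47.7 CPM in the Bin1KO mice against 23.7, 19.5, 19.2 and 21.9 CPM in WT, and overlapped in the Dnm2 cohort (17.8 to 30.1 CPM against 23.9 to 32.8 CPM). It rose in the Bin1KO mice (log2 fold change 1.08, edgeR adjusted p = 0.00149), and the difference was -1.30 (adjusted p = 0.0180). Peroxisomal and retinoid enzymes were among the genes called lower as well, with differences of -0.66 for the peroxide scavenger *Cat*, -0.90 for *Hsdl2*, -0.82 for *Retsat* and -0.59 for *Dhrs4* (adjusted p between 0.0335 and 0.0421). In the fits that left out 1 mouse, the call held in all 16 for *Bdh1*, *Lpl* and *Etfdh*, in 15 for *Acss1* (adjusted p = 0.0545 without WT mouse 7 of the Bin1 cohort), in 14 for *Esrrb*, 11 for *Slc25a20*, 9 for *Acot11*, 7 for *Dhrs4*, 6 for *Hsdl2*, 5 each for *Fabp3*, *Plin3* and *Gm15743*, 4 each for *Acadvl* and *Retsat* and 3 for *Cat*. In the fits that lost them, the adjusted p of these genes reached at most 0.112, and no sign changed.

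**Figure D3:**
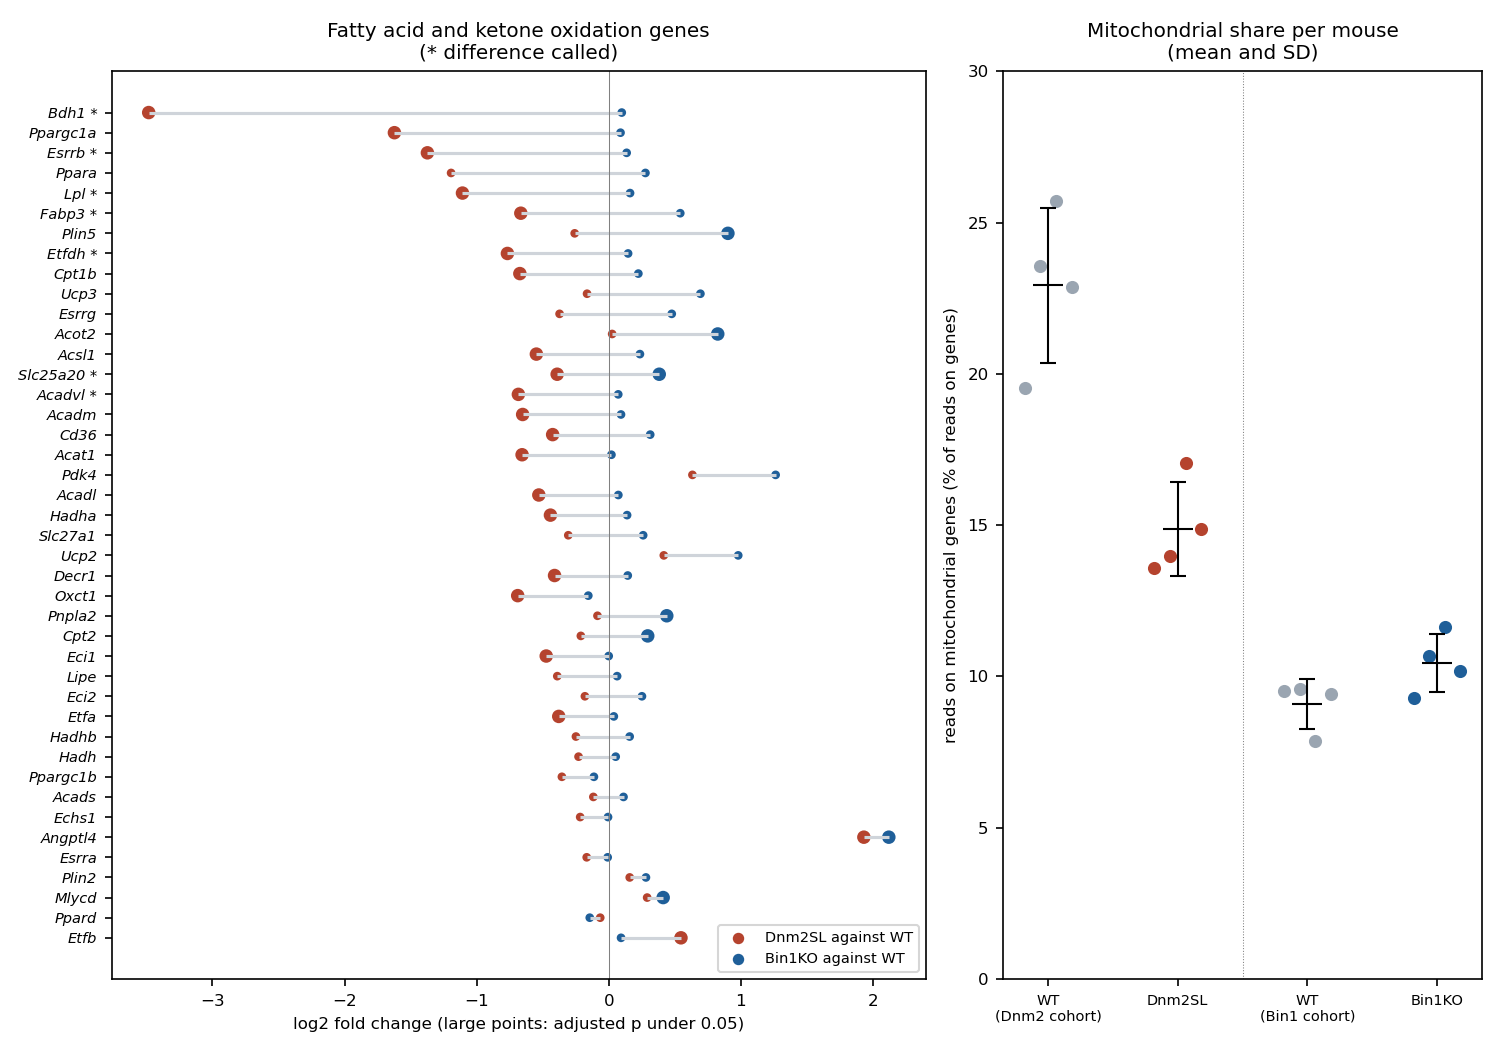
Left, log2 fold change of the 42 tested genes of fatty acid and ketone oxidation in the Dnm2SL mice (red) and the Bin1KO mice (blue), ordered by the difference, with large points for an adjusted p under 0.05 and an asterisk where the difference was called; right, reads on mitochondrial genes as a percent of reads on genes in each mouse, with mean and SD. In 40 of the 42 genes the red point lies left of the blue one, and the 4 Dnm2SL mice (13.6% to 17.1%) lie below their WT mice (19.6% to 25.7%).

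Of the 7 list members called for the difference, 6 have an entry in the promoter table of RefSeq (GRCm38.p6). The stretch before the start is shown for *Etfdh* and *Bdh1*, the members with an entry and the smallest adjusted p, and for *Acadvl*, chosen after its letters were seen because it alone of the 6 holds the motif searched. Each run holds the 250 bases before an annotated start, 5′ to 3′ on the strand of the gene, and capitals mark AGGTCA, the core element that many nuclear receptors bind, searched on both strands. *Acadvl* is read on the minus strand at chr11:70015429-70015678, *Etfdh* on the minus strand at chr3:79628768-79629017, and *Bdh1* on the plus strand at chr16:31422047-31422296 and, for another annotated start, at chr16:31428503-31428752.
Acadvl: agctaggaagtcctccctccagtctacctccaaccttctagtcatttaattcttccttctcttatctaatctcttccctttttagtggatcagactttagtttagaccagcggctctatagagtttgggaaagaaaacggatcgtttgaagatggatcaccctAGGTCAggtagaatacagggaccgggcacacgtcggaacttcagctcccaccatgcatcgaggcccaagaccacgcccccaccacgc
Etfdh: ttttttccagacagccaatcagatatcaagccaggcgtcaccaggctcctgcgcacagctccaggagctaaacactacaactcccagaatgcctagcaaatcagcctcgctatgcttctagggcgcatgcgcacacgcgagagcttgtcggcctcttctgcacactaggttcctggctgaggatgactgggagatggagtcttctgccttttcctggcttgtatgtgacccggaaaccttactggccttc
Bdh1, first start: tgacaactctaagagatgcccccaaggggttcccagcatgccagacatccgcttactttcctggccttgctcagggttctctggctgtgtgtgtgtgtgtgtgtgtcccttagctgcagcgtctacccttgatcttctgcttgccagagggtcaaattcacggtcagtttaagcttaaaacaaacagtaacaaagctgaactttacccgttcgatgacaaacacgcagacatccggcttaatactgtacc
Bdh1, second start: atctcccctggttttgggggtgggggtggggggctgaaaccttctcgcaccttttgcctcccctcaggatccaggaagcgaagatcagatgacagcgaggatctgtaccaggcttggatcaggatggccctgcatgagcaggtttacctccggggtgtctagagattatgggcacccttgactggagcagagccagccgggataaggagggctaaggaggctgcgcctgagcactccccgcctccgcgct
The match of *Acadvl* begins 87 bases before the start, and the windows of *Esrrb*, *Slc25a20* and *Fabp3*, which are not shown, held 0 matches. In windows of 300 bases that also take in the first 50 transcribed bases, 8 of the 46 windows of the tested list members held this element (17.4%), as did 4 of the 35 windows of genes called lower (11.4%) and 2 of the 32 of genes called higher (6.25%), beside 12.8% of the 14235 windows of all genes tested and 16.3% of the 32851 windows of all promoters. The longer AAGGTCA, bound by estrogen-related receptors and containing the first motif, was in 1 of the 46 windows (2.17%), in 0 of the windows of called genes, in 3.45% of those of all genes tested and in 4.72% of all windows. A match is a description of these letters and not of a bound site.

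Reads of the mitochondrial genome showed the same direction. In the Dnm2SL mice, 13.6%, 13.97%, 17.1% and 14.9% of the reads on genes were mitochondrial, against 19.6%, 23.6%, 25.7% and 22.9% in WT. In the Bin1 cohort the shares were 9.29%, 10.7%, 11.6% and 10.2% in the Bin1KO mice and 9.51%, 9.60%, 7.86% and 9.44% in WT. The first cohort did not overlap and the second did. The Dnm2SL mice were lower by a mean of -8.06 percentage points (exact two-sided permutation p = 0.0286, the smallest that 4 against 4 allows). Bin1KO mice were higher by 1.34 points (exact p = 0.114), and the difference was -9.41 points. Permuting genotype labels within both cohorts gave it an exact p of 0.00163 over the 4900 arrangements. The null of this permutation is no genotype effect in either cohort. A fall in the Dnm2SL mice alone can make its p small, and equality of the effects was not tested. WT mice of the cohorts stood at different levels, and the difference was -0.82 on the log2 scale of the share, with the same exact p.

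Of the 13 protein genes of mitochondrial DNA, 7 were tested. *mt-Co2*, *mt-Co3*, *mt-Atp6*, *mt-Atp8*, *mt-Nd3* and *mt-Nd4l* lay between 0 and 1.615 CPM in all 16 mice and were not tested. The mitochondrial share holds almost no reads of these genes, and why they are missing was not tested. All 7 tested genes fell in the Dnm2SL mice, and 0 were called in the Bin1KO mice. *mt-Nd6* overlapped in the Dnm2 cohort (145.5 to 756.9 CPM against 310.6 to 3327 CPM in WT). The difference was called lower for 4 of the 7, with a median difference of -1.02. *mt-Nd5* (ENSMUSG00000064367), a subunit of complex I, was at 11853, 10679, 14565 and 10490 CPM in the Dnm2SL mice and at 19874, 32827, 36254 and 29360 CPM in WT. In the Bin1KO mice it was at 8596, 8357, 9767 and 7813 CPM, against 8835, 9265, 7193 and 7512 CPM in WT. The Dnm2SL mice were below WT without overlap and the Bin1 cohort was mixed, with a difference of -1.39 (95% interval -1.88 to -0.89, edgeR adjusted p = 0.0148).

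The other called members were *mt-Co1* with a difference of -1.12, *mt-Cytb* with -0.92 and *mt-Nd2* with -1.02 (edgeR adjusted p between 0.0289 and 0.0498). The mitochondrial tRNA gene *mt-Tw* was at 6.11 to 11.04 CPM in the Dnm2SL mice against 15.1 to 23.8 CPM in WT and at 7.99 to 8.91 CPM in the Bin1KO mice against 6.34 to 7.19 CPM in WT, a difference of -1.56 (adjusted p = 0.00949). *Gm13340*, an unprocessed pseudogene on a nuclear chromosome whose name places it beside similar copies, had -1.24 (adjusted p = 0.0190), and reads may be shared between such copies and the mitochondrial genome. Left-out mice ended none of the calls of *mt-Nd5* and *mt-Tw*, and the call held in 13 of 16 fits for *Gm13340*, 8 for *mt-Co1*, 5 for *mt-Cytb* and 3 for *mt-Nd2* (adjusted p up to 0.119).

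Nuclear genes of the respiratory chain had median effects near 0 in both models. Of 75 tested, 6 rose and 10 fell in the Dnm2SL mice, where 12.6% and 12.1% of all genes did. In the Bin1KO mice 1 rose and 0 fell, where 6.26% and 3.67% of all genes did. The median effects of the list were -0.01 and -0.04. The difference was called for 1, *Atp5g1*, a gene for the ring subunit of ATP synthase, which was at 16.5, 15.7, 19.98 and 17.6 CPM in the Dnm2SL mice against 31.4, 27.8, 28.4 and 23.0 CPM in WT (difference -0.77, edgeR adjusted p = 0.0435). Outside the list, *Cox14*, which helps to assemble complex IV, was higher in the Dnm2SL mice (81.8 to 93.6 CPM against 51.7 to 66.1 CPM) and overlapped in the Bin1 cohort, with a difference of 0.67 (adjusted p = 0.0359). These calls were lost in 12 and 9 of the 16 fits without 1 mouse (adjusted p up to 0.0992).

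Called genes of glycolysis were mostly lower in both models. In the Dnm2SL mice 15 of the 34 tested genes of glycolysis and glycogen fell and 3 rose, where 12.1% and 12.6% of all genes did. In the Bin1KO mice 9 fell and 1 rose, where 3.67% and 6.26% of all genes did. The median difference was -0.14. The 1 call for the difference was *Pgk1*, higher in the Dnm2SL mice (23.6 to 31.0 CPM against 11.8 to 20.5 CPM) with a difference of 1.05 (edgeR adjusted p = 0.0402), which was lost in 12 of the 16 fits without 1 mouse (adjusted p up to 0.115). *Pgk1*, *Gapdh* and *Atp5g1* have near-identical copies elsewhere in the genome that can take or share their reads, so their values are uncertain. *Hk2*, the hexokinase of insulin-responsive tissue, was at 295 to 377 CPM in the Dnm2SL mice against 454 to 1109 CPM in WT, and its difference of -1.21 had an adjusted p of 0.0514. For *Gapdh* the difference was -1.11 (adjusted p = 0.0839).

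The genes that rose with the *Dnm2* mutation alone included *Map3k7cl*, *Gdf11* and the p53 targets *Gadd45a* and *Perp*. *Map3k7cl* (ENSMUSG00000025610) was at 81.4, 104, 46.8 and 77.6 CPM in the Dnm2SL mice and at 9.67, 13.02, 7.94 and 19.03 CPM in WT. Bin1KO mice had 13.6, 9.20, 10.4 and 16.1 CPM, against 14.6, 17.4, 17.2 and 23.6 CPM in WT. Only the Dnm2 cohort separated, and the difference was 3.19 (95% interval 2.33 to 4.04, edgeR adjusted p = 0.00546). *Gdf11* (ENSMUSG00000025352), a secreted factor of the TGF-beta family and the closest relative of myostatin, was at 29.3, 46.7, 24.7 and 22.6 CPM in the Dnm2SL mice against 5.58, 5.40, 3.08 and 6.85 CPM in WT. In the Bin1 cohort its values were 2.34 to 6.01 CPM against 3.88 to 7.28 CPM in WT, and the difference was 2.78 (95% interval 1.86 to 3.70, adjusted p = 0.0143). It was the 1 member called for the difference among the 33 tested genes of muscle mass regulation, whose median difference was -0.02.

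Of 24 targets of p53, 8 rose and 2 fell in the Dnm2SL mice, where 12.6% of all genes tested rose, and 2 rose and 1 fell in the Bin1KO mice, where 6.26% rose. The difference was called higher for 2 of the 24, where 0.255% of all genes were, and the median difference was 0.16. *Gadd45a* (ENSMUSG00000036390), a growth-arrest gene that denervation and DNA damage induce, was at 100, 91.7, 68.5 and 88.5 CPM in the Dnm2SL mice and at 23.9, 26.8, 27.9 and 19.7 CPM in WT. The Bin1KO mice (32.4, 51.8, 24.3 and 43.4 CPM) overlapped their WT mice (27.5, 41.0, 29.9 and 33.9 CPM). The difference was 1.63 (95% interval 1.03 to 2.23, edgeR adjusted p = 0.0190).

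*Perp*, a p53 effector of the cell membrane, was at 9.29, 14.2, 3.12 and 9.60 CPM in the Dnm2SL mice against 1.04 to 2.24 CPM in WT, with a difference of 2.45 (edgeR adjusted p = 0.0397). *Cdkn1a*, the cell cycle inhibitor p21, rose in both models and the difference of 1.75 did not pass the test (95% interval 0.68 to 2.83, adjusted p = 0.110). Its levels were 102 to 190 CPM against 12.7 to 30.5 CPM in WT in the Dnm2 cohort, and 66.6 to 233 CPM against 44.2 to 82.6 CPM in the Bin1 cohort. *Map3k7cl*, *Gdf11* and *Gadd45a* were called in all 16 fits without 1 mouse, and *Perp* in 3 of them (adjusted p up to 0.0901).

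Genes of the neuromuscular junction and of denervation had a median effect of 0.71 in each model. Of 27 tested, 12 rose and 2 fell in the Dnm2SL mice, where 12.6% and 12.1% of all genes did. In the Bin1KO mice 6 rose and 0 fell, where 6.26% and 3.67% of all genes did. *Gadd45a* was again the 1 called for the difference, and the median difference was 0.39. *Hdac4*, a histone deacetylase that represses *Dach2* after denervation, rose in the Dnm2SL mice (48.5 to 65.8 CPM against 25.5 to 39.5 CPM, log2 fold change 0.90, edgeR adjusted p = 0.00197), and *Dach2* fell there (1.21 to 2.16 CPM against 3.30 to 5.06 CPM, log2 fold change -1.17, adjusted p = 0.0218). For neither was the difference called (1.08 with adjusted p = 0.0575 and -2.07 with adjusted p = 0.0627).

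*Tsc22d4*, a transcriptional regulator of the TSC22 family, rose in both models and further in the Dnm2SL mice. It was at 75.3, 83.8, 71.9 and 79.4 CPM against 28.7, 23.1, 27.4 and 28.7 CPM in WT, and at 68.4, 62.9, 47.5 and 63.0 CPM in the Bin1KO mice against 45.0, 40.2, 49.3 and 36.6 CPM in WT. The Dnm2 cohort separated and Bin1KO mouse 3 overlapped its WT mice, with a difference of 1.02 (95% interval 0.68 to 1.37, edgeR adjusted p = 0.0143). *Traf3*, an adaptor that restrains noncanonical NF-kB signalling, was at 37.1 to 44.3 CPM against 24.0 to 29.9 CPM in WT in the Dnm2 cohort and at 31.0 to 41.0 CPM against 37.9 to 47.6 CPM in the Bin1 cohort. The difference was 0.93 (adjusted p = 0.0148), and neither *Tsc22d4* nor *Traf3* lost its call without any 1 mouse. *Chrna2*, a subunit of neuronal nicotinic receptors, was at 0.0380 to 0.129 CPM in the Dnm2SL mice against 0.327 to 0.848 CPM in WT, and at 0.531 to 1.73 CPM against 0.271 to 1.01 CPM in the Bin1 cohort. The levels of the Dnm2SL mice rest on a few reads each, and the difference of -4.004 (adjusted p = 0.0304) was called in 8 of the 16 fits without 1 mouse (adjusted p up to 0.0731).

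Genes of the triad had like medians in both models, and a calcium entry channel differed. Of 39 tested genes of the triad and of excitation-contraction coupling, 9 fell and 7 rose in the Dnm2SL mice. There, 12.1% of all genes tested fell and 12.6% rose. In the Bin1KO mice 7 of the 39 fell and 2 rose, where 3.67% and 6.26% of all genes did. The medians of the list were -0.17 and -0.25. *Orai1* (ENSMUSG00000049686), the pore of store-operated calcium entry, was the 1 called for the difference. It was at 37.1, 38.0, 38.5 and 32.8 CPM in the Dnm2SL mice and at 24.7, 20.8, 18.9 and 22.2 CPM in WT. In the Bin1KO mice it was at 40.2, 33.0, 32.9 and 31.8 CPM, above and below the 34.1 to 36.6 CPM of WT. The difference was 0.77 (95% interval 0.49 to 1.06, edgeR adjusted p = 0.0180), called in all 16 fits without 1 mouse.

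A pair of subunits of the dihydropyridine receptor, named for a small p of the difference, rose in the Dnm2SL mice. Their differences lay just outside the threshold. Other subunits of this receptor are not described. *Cacnb1*, its beta subunit, was at 332, 340, 291 and 320 CPM in the Dnm2SL mice against 187, 164, 171 and 174 CPM in WT, and *Cacng1*, its gamma subunit, at 313, 573, 272 and 322 CPM against 140, 148, 150 and 141 CPM. For both genes the Dnm2SL mice lay above all WT mice, and the Bin1 cohort overlapped. Their differences were 0.75 (95% interval 0.40 to 1.101, edgeR adjusted p = 0.0510) and 1.25 (95% interval 0.66 to 1.85, adjusted p = 0.0548). *Ppp3ca*, a catalytic subunit of the calcium-dependent phosphatase calcineurin, fell in the Bin1KO mice (127 to 142 CPM against 185 to 205 CPM in WT) and overlapped in the Dnm2 cohort (227 to 277 CPM against 211 to 261 CPM), with a difference of 0.64 (adjusted p = 0.0304). Its call held in 9 of the 16 fits without 1 mouse (adjusted p up to 0.0727).

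Genes of the vessel wall were among those with a lower Dnm2 effect. *Myh11* (ENSMUSG00000018830), the myosin heavy chain of smooth muscle, was at 40.0, 33.9, 46.2 and 33.2 CPM in the Dnm2SL mice and at 91.8, 86.9, 93.5 and 79.7 CPM in WT. The Bin1KO mice (99.4, 51.0, 79.2 and 62.3 CPM) overlapped their WT mice (77.5, 63.0, 60.8 and 49.97 CPM), and the difference was -1.41 (95% interval -1.94 to -0.89, edgeR adjusted p = 0.0190). *Ace* (ENSMUSG00000020681), the angiotensin-converting enzyme, fell in the Dnm2SL mice (44.3, 45.9, 42.3 and 24.0 CPM against 60.5, 72.1, 72.5 and 50.4 CPM) and rose in the Bin1KO mice (57.5, 64.9, 55.3 and 66.8 CPM against 44.9, 31.9, 41.8 and 33.8 CPM). The genotypes separated fully in each cohort, and the difference was -1.39 (95% interval -1.92 to -0.86, adjusted p = 0.0222).

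*Epas1*, the hypoxia-inducible factor HIF-2 alpha, and *Sparcl1*, a matricellular protein, both rich in vessels, had differences of -0.82 (edgeR adjusted p = 0.0358) and -0.88 (adjusted p = 0.0335). Markers of these cells moved alongside. All 9 endothelial markers were tested. In the Dnm2SL mice 6 fell and in the Bin1KO mice 0, where 12.1% and 3.67% of all genes fell. None of the markers was called for the difference. Their 9 differences were all negative, with a median of -0.68, and 8041 of the 15301 differences of all genes were negative. The summed level of the endothelial markers was 262.6 to 657.7 CPM in the Dnm2SL mice against 624.5 to 1015 CPM in WT. It was 552.4 to 750.4 CPM in the Bin1KO mice against 739.5 to 834.1 CPM in WT.

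Of the 7 markers of smooth muscle and pericytes, 4 fell and 0 rose in the Dnm2SL mice, 1 rose in the Bin1KO mice and *Myh11* was called for the difference. They summed to 357.3 to 725.6 CPM against 1050 to 1238 CPM in WT and to 583.1 to 810.6 CPM against 736.7 to 779.2 CPM in WT. The largest part of these sums was *Rgs5*. It was at 200.9 to 457.8 CPM in the Dnm2SL mice against 674.9 to 823.9 CPM in WT. In the Bin1KO mice it was at 301.7 to 434 CPM against 397.1 to 469.7 CPM in WT. In whole muscle, fewer cells of a type and less RNA per cell cannot be told apart, and the part of vessel cells in other differences, such as that of *Lpl*, was not tested. The calls of *Myh11* and *Ace* held in 12 and 11 of the 16 fits without 1 mouse and those of *Epas1* and *Sparcl1* in 7 each (adjusted p up to 0.0964, without WT mouse 8 of the Bin1 cohort).

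Matrix genes rose in both models. Of 39 collagens and matrix proteins, 27 rose in the Bin1KO mice and 13 in the Dnm2SL mice, and 0 fell in either. Of all genes tested, 6.26% rose in the Bin1KO mice and 12.6% in the Dnm2SL mice. The difference was called for 0 of the 39 by edgeR and was lower with an unadjusted p under 0.05 for 12, with a median of -0.56. *Col3a1*, the collagen of fine fibrils, was at 812, 1606, 910 and 2114 CPM in the Bin1KO mice against 285 to 423 CPM in WT, and at 690 to 929 CPM in the Dnm2SL mice against 374 to 579 CPM in WT (difference -1.28, adjusted p = 0.0968). *Dpt* (ENSMUSG00000026574), a matrix protein of fibroblasts, rose in both models. It was at 58.7, 52.7, 48.4 and 45.0 CPM in the Dnm2SL mice against 43.4, 40.0, 38.4 and 31.5 CPM in WT, and at 61.9, 75.8, 57.8 and 83.7 CPM in the Bin1KO mice against 30.4, 21.7, 29.8 and 29.1 CPM in WT. The groups separated in both cohorts, and the difference was -0.91 (95% interval -1.32 to -0.50, adjusted p = 0.0406).

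Several secreted proteins outside the list went in opposite directions or rose in the Bin1KO mice alone. *C1qtnf3* (ENSMUSG00000058914), a secreted relative of adiponectin, was at 0.365, 0.313, 0.616 and 0.456 CPM in the Dnm2SL mice against 1.83, 0.775, 0.848 and 1.81 CPM in WT, and at 1.15, 4.17, 3.03 and 3.53 CPM in the Bin1KO mice against 1.25, 0.590, 0.733 and 0.602 CPM in WT. The Dnm2SL mice were all lower, Bin1KO mouse 1 overlapped, and the difference was -3.53 (95% interval -4.77 to -2.30, edgeR adjusted p = 0.0148). *Nepn*, a small leucine-rich proteoglycan, had a difference of -2.36 (adjusted p = 0.0363), with log2 fold changes of -1.22 and 1.14 that were each called.

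*Nid1*, a basement membrane linker, *Fndc1* and *Mamdc2* rose in the Bin1KO mice, with log2 fold changes of 0.80, 1.17 and 1.101, and were not called in the Dnm2SL mice. Their differences were -1.14, -1.29 and -1.67 (edgeR adjusted p between 0.0335 and 0.0438). *Cpa3*, the carboxypeptidase of mast cells, was at 3.16 to 5.64 CPM in the Bin1KO mice against 0.860 to 1.84 CPM in WT and at 0.949 to 3.52 CPM in the Dnm2SL mice against 2.31 to 4.92 CPM in WT, a difference of -2.44 (adjusted p = 0.0397). *Dio2*, which activates thyroid hormone, and *Kifc3*, a motor of microtubules, also moved in called opposite directions, with differences of -1.94 and -0.89 (adjusted p = 0.0397 and 0.0358).

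Fibroblast markers summed to 2263 to 3661 CPM in the Dnm2SL mice against 1597 to 2086 CPM in WT and to 2772 to 5338 CPM in the Bin1KO mice against 1440 to 1667 CPM in WT. All 9 were tested, and 5 rose in the Dnm2SL mice and 7 in the Bin1KO mice, where 12.6% and 6.26% of all genes rose. Their 9 differences were all negative, with a median of -0.40, and 8041 of the 15301 differences of all genes were negative. *Dpt* and *Col3a1*, described above with the matrix genes, are among these markers, so the markers are not separate from that result. In the Bin1KO mice *Col3a1* and *Col1a1* gave 812.5 to 2114 CPM and 385.9 to 1424 CPM of the sum. The part of fibroblasts in the matrix genes was not tested. *C1qtnf3* was called in all 16 fits without 1 mouse, *Mamdc2* in 7, *Nepn* and *Cpa3* in 6, *Dpt*, *Fndc1*, *Dio2* and *Kifc3* in 5 and *Nid1* in 4 (adjusted p up to 0.124, without WT mouse 8 of the Bin1 cohort).

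Among the other genes called higher were enzymes, transporters and a ribosomal protein. *Gstp2* (ENSMUSG00000038155), a glutathione S-transferase, was at 18.4, 24.0, 15.1 and 17.8 CPM in the Dnm2SL mice and at 8.17, 7.01, 5.70 and 7.20 CPM in WT, while the Bin1KO mice (13.1 to 17.0 CPM) overlapped WT (12.0 to 15.2 CPM). The difference was 1.36 (95% interval 0.94 to 1.79, edgeR adjusted p = 0.00949), and that of its near copy *Gstp1* was 0.82 (adjusted p = 0.0397). *Cpe*, a carboxypeptidase that trims prohormones, rose from 248 to 277 CPM in WT to 451 to 626 CPM in the Dnm2SL mice, a difference of 0.87 (adjusted p = 0.0143). *Tmem117* (0.97, adjusted p = 0.00753), *Slc44a2* (0.78, adjusted p = 0.0143) and *Rtl8b* (1.47, adjusted p = 0.0222) were higher as well. So were the ribosomal protein gene *Rpl37a* (1.21, adjusted p = 0.0318) and the lipid peroxidase *Gpx4* (0.80, adjusted p = 0.0397). *Rpl37a* was at 8.76 to 14.6 CPM in the Dnm2SL mice against 4.01 to 7.01 CPM in WT. Whether near-identical copies took or shared its reads was not tested. Genes called higher had shorter transcripts than all genes tested, a trend described below that limits the reading of these calls. The call held in all 16 fits without 1 mouse for *Gstp2*, *Cpe*, *Tmem117* and *Slc44a2*, in 12 for *Rtl8b*, 7 for *Rpl37a* and 6 each for *Gpx4* and *Gstp1* (adjusted p up to 0.112).

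Proteasome genes were more often positive than negative in the difference. Of 32 tested, 9 rose and 2 fell in the Dnm2SL mice, where 12.6% and 12.1% of all genes did. In the Bin1KO mice 0 rose and 1 fell, where 6.26% and 3.67% of all genes did. Of the 32 differences 27 were positive, with a median of 0.18, and 7260 of the 15301 differences of all genes were positive. The part of transcript length in this list, a trend described below for all genes, was not tested. *Psmb4*, a subunit of the catalytic core, was the 1 called, at 115, 147, 106 and 114 CPM in the Dnm2SL mice against 69.6, 68.8, 67.8 and 79.2 CPM in WT (difference 0.72, edgeR adjusted p = 0.0363, lost in 8 of 16 fits without 1 mouse with an adjusted p up to 0.0994). Of the genes of unknown role called lower, *Gm15543*, antisense within *Casc1*, had a difference of -2.62 (adjusted p = 0.0190) and *BC048679* one of -2.21 (adjusted p = 0.0276), called in 15 and 11 of these fits.

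Transcript length moved with these differences. The longest annotated transcript had a median of 1977 bases for genes called higher, 2797 bases for genes called lower and 3199 bases for all genes tested. Among genes with a mean log2 CPM above 1, the median Dnm2 effect went from 0.14 in the 2813 genes with the shortest transcripts over 0.01 and -0.10 to -0.17 in the 2812 with the longest, and the median Bin1 effect from 0.02 over 0.01 and -0.02 to -0.05. Across 11249 genes the difference and the length had a Spearman's rho of -0.253. With offsets that remove this trend, 121 genes were called, 54 higher and 67 lower, and 74 of the 86 were among them. In the same groups of genes, from the shortest transcripts to the longest, 20, 8, 8 and 1 differences were called higher and 15, 9, 10 and 8 lower. Of the genes called higher, *Bin1*, *Cpe*, *Gdf11*, *Gstp2*, *Map3k7cl*, *Tmem117* and *Traf3* were called in every alternative, these offsets included. Whether others, such as *Psmb4*, *Cox14*, *Rpl37a* and *Gpx4*, kept their call with the offsets is not described. Fragmentation time differs between the cohorts and not within them, and the part of length in single genes was not tested further.

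The 800 genes that changed in the same direction in both models were 21.2% of the genes called in the Dnm2SL mice and 52.7% of those called in the Bin1KO mice. *Rrad* (ENSMUSG00000031880), among those called most firmly in both and a small GTPase that binds calcium channel beta subunits, was at 32.8, 27.9, 46.9 and 19.97 CPM in the Dnm2SL mice against 1.08, 0.748, 0.694 and 1.42 CPM in WT, and at 49.0, 24.2, 23.3 and 36.5 CPM in the Bin1KO mice against 1.34, 1.04, 1.15 and 1.504 CPM in WT. Disease and WT mice were far apart in both cohorts. The log2 fold changes were 4.93 and 4.72, and the difference of 0.22 had a 95% interval of -0.70 to 1.14 (edgeR adjusted p = 0.859). *Nfkb2*, the p100 subunit of NF-kB, differed by 0.34 (95% interval -0.12 to 0.80) and the adaptor *Sh2d4a* by -0.08 (95% interval -0.79 to 0.62).

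The other genes called most firmly in both were *Mt3*, a metallothionein, with log2 fold changes of 5.73 and 4.61, *Msln*, mesothelin, with 5.16 and 3.50, and *Lgals3*, galectin-3, with 2.35 and 3.17. Their differences were 1.13, 1.66 and -0.82, and none was called (edgeR adjusted p between 0.186 and 0.437). Of the 800 genes called in the same direction, 798 were not called for the difference, 504 had a 95% interval of the difference within 1 of 0 on the log2 scale, and 468 had the larger effect in the Dnm2SL mice. An interval that reaches beyond 1 leaves room for a doubling between the models.

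For other genes followed in these models, the spread between mice left wide intervals. *Krt18*, a keratin, was at 18.98, 46.3, 6.29 and 15.6 CPM in the Dnm2SL mice against 0.109 to 0.385 CPM in WT and at 2.30, 3.69, 0.914 and 11.2 CPM in the Bin1KO mice against 0.127 to 0.390 CPM in WT. It rose in both models without overlap, and the difference of 2.90 had a 95% interval of -0.09 to 5.89 (edgeR adjusted p = 0.322). *Sln*, sarcolipin, which slows the calcium pump, differed by 1.71 (95% interval -0.54 to 3.96), *Sox11* by 0.87 (95% interval -1.99 to 3.74) and the slow light chain *Myl3* by -0.39 (95% interval -1.60 to 0.82). *Fgfr4*, a growth factor receptor, fell by 3.50 on the log2 scale in the Dnm2SL mice and by 1.55 in the Bin1KO mice, and its difference of -1.94 had an adjusted p of 0.105.

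**Figure D4:**
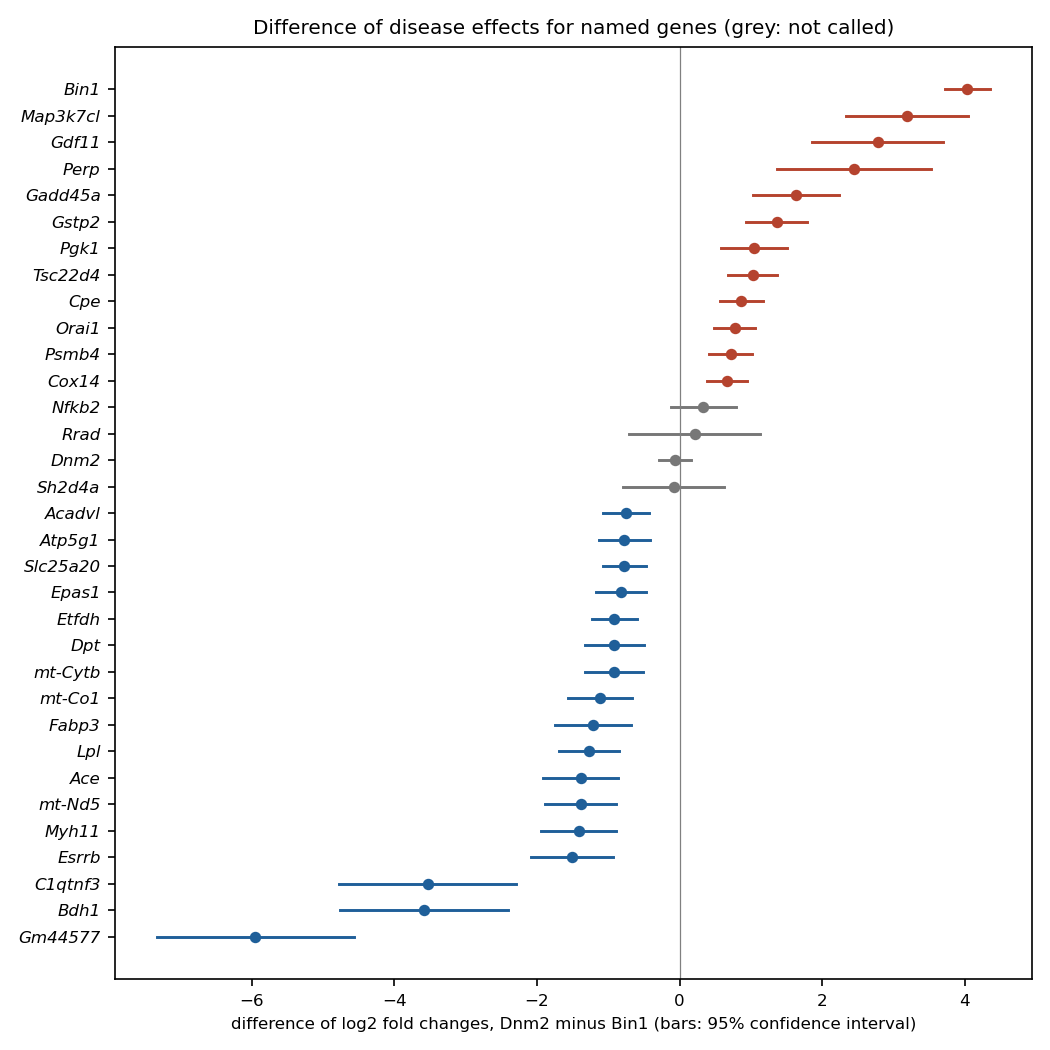
Difference of disease effects (log2 fold change of Dnm2SL against WT minus that of Bin1KO against WT, x axis) with its 95% interval for 33 named genes, red where called higher, blue where called lower and grey where not called. Intervals of *Nfkb2*, *Rrad*, *Dnm2* and *Sh2d4a* cross 0, and that of *Bin1* is the narrowest among the genes with a difference beyond 2.

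Lists of fiber types held 0 calls for the difference by edgeR. Beside their counts, 12.6% of all genes tested rose and 12.1% fell in the Dnm2SL mice. The shares were 6.26% and 3.67% in the Bin1KO mice. Of the 20 fast fiber genes, 7 fell and 1 rose in the Dnm2SL mice and 8 fell and 0 rose in the Bin1KO mice, with a median difference of 0.04, and 4 were higher and 1 lower at an unadjusted p under 0.05. Among the 16 slow fiber genes, 5 rose and 2 fell in the Dnm2SL mice, 0 rose and 1 fell in the Bin1KO mice, and 2 were higher and 1 lower at an unadjusted p under 0.05. *Myl2* and *Myh7*, the light and heavy chain of slow myosin, had differences of 4.51 (95% interval 2.02 to 6.996, adjusted p = 0.0904) and 3.40 (95% interval 0.92 to 5.87, adjusted p = 0.166). Of the 24 genes of developing and regenerating fibers, 12 rose in the Dnm2SL mice and 8 in the Bin1KO mice, with 1 lower in each, and the median difference was 0.41.

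**Figure D5:**
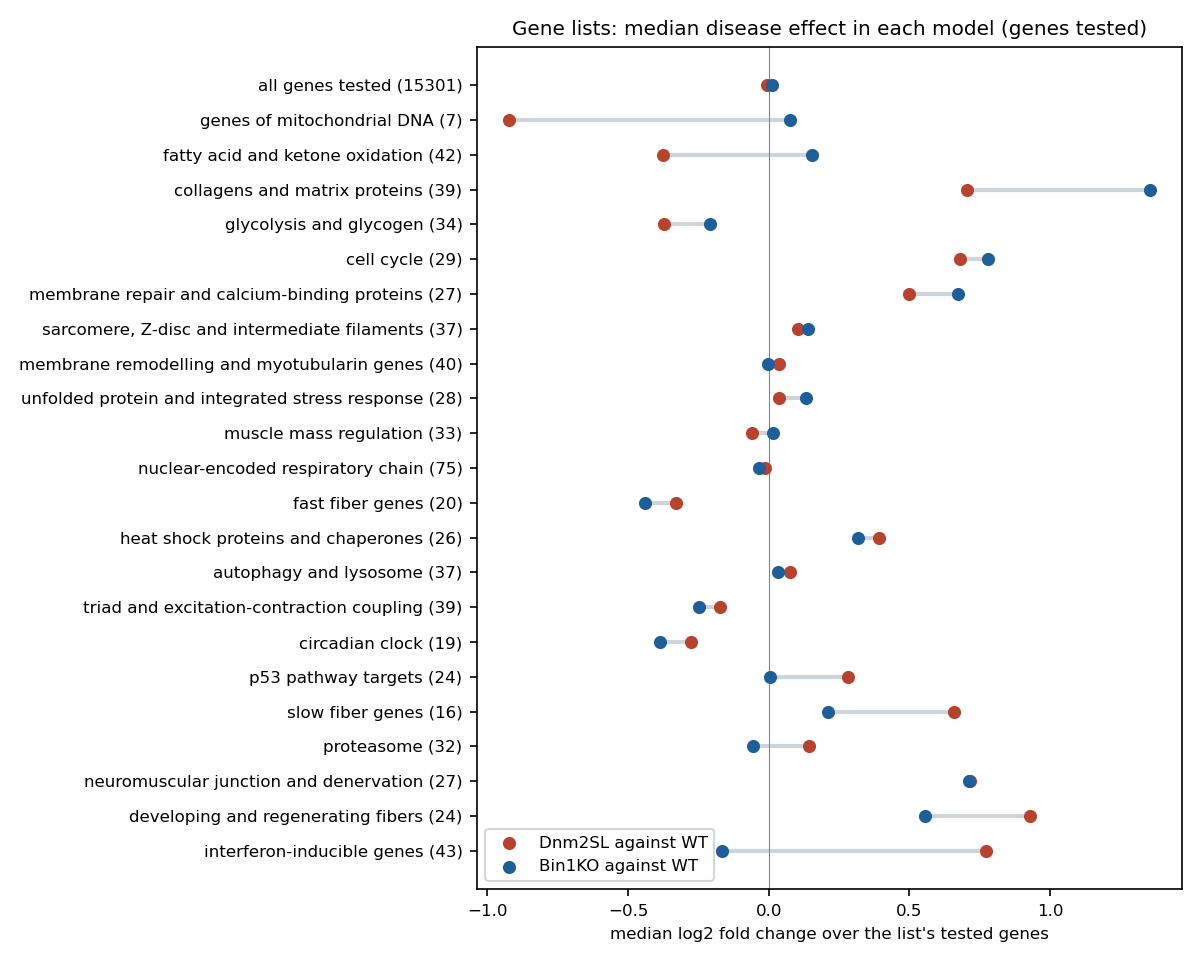
Median log2 fold change over the tested genes of each list (number in brackets) in the Dnm2SL mice (red) and the Bin1KO mice (blue), with all genes in the first row and the lists ordered by the median difference from the lowest down. The genes of mitochondrial DNA and of fatty acid and ketone oxidation have a red median below 0 and a blue one above 0, and the collagens have the blue median above the red one.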

How the data were processed

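Strand-specific RNA-seq libraries of TA muscle from 16 placebo mice were analysed, 4 in each of 4 groups taken from the sample labels, and age and strain are those of the study's methods. Nothing in the labels says that the mice come from separate litters, so p-values measure the spread between these samples. Read counts per Ensembl gene, whole numbers that had not been normalized, were deposited by the authors as 1 table per cohort. The submitters' processing notes name bcl2fastq 2.20.0.422, cutadapt 1.10, Bowtie 1.2.2, STAR 2.5.3, HTSeq 0.6.1p1 and the mm39 build, with no roles. The Bin1 table holds 4 lines that are not genes, with 22.0% to 24.9% of the counts (median 23.4%), which were left out. Identifiers were named with GENCODE M21 (52083 of 55359, and 15277 of the 15301 tested), and since the reference at hand is GRCm38, no gene positions are given other than those of the RefSeq promoter table. Reads of mitochondrial genes, pseudogenes and near-identical copies can be shared.

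All 16 mice entered 1 fit of edgeR 4.0.16 in R 4.3.3 with a mean per group, TMM scaling, the default filter on low counts over the 4 groups and the robust quasi-likelihood test (prior count 0.125). Contrasts were each disease effect and their difference, Benjamini-Hochberg adjusted over all 15301 genes at 0.05, with 95% intervals from the same fit. The mitochondrial share was compared with an exact two-sided permutation test within cohorts, whose null is no genotype effect in either cohort. Gene lists are described by counts and medians beside all genes, without a set test. Where no share stands beside a count, the shares of all genes given with the disease effects apply. The members and lists were chosen with earlier results of these data known. Genes were named by 6 rules (largest differences without overlap, smallest p within each list, opposite calls, shared calls, 10 genes followed in these models, and markers). *Gm15743*, *Acadvl*, *Fabp3*, *Acss1*, *Acot11*, *Cat*, *Hsdl2*, *Retsat*, *Dhrs4*, *Cox14*, *mt-Nd2*, *Gm13340*, *Traf3*, *Chrna2*, *Ppp3ca*, *Epas1*, *Sparcl1*, *Nid1*, *Fndc1*, *Gpx4*, *Gstp1*, *Cpe*, *Tmem117* and *Slc44a2* lie outside them and were chosen after their values were seen. The scripts were tested on simulated counts. The depth per mouse of at least 15586333 reads sets counting error, and replicates differed by more than counting error in every pair.

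Alternatives were RLE scaling, TMM within each cohort, library sizes without mitochondrial reads, no filter, the study's filter (more than 10 reads in 90% of the mice), all 28 mice, thinned libraries, a replicate block, a prior count of 2, limma voom (limma 3.58.1), DESeq2 1.42.0 and omitting each mouse in turn. Added after the data were seen were a sex term, the *Xist* libraries alone and offsets for transcript length.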

Additional observations from a re-analysis of the deposited data

Results flagged for a closer look

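The difference of disease effects was tested for every gene and passed for 86, of which 79 are covered by the counts of the report and 7 had opposite effects that were each called. These 7 differences were 4.04 for *Bin1*, -3.53 for *C1qtnf3*, -1.39 for *Ace*, -0.773 for *Slc25a20*, -0.889 for *Kifc3*, -2.36 for *Nepn* and -1.94 for *Dio2*. The difference of disease effects on the mitochondrial share was -9.406 percentage points. The exact permutation p given in the report has no genotype effect in either cohort as its null.

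Single mice stood apart from the other 3 of their group in 28 of the 332 sets of 4 values that were examined, by a gap beyond Dixon's 95% critical value for 4 samples. Chance alone sets about 1 in 20 groups apart in this way. The widest gap relative to the range was that of *Gm4841*, an interferon-inducible GTPase gene with close copies, at 758 CPM in Dnm2SL mouse 4 against 4.22 to 23.1 CPM in the others. Its difference of 7.09 was not called (edgeR adjusted p = 0.101), and in the Bin1KO mice it was at 16.5 CPM in mouse 3 against 3.32 to 5.57 CPM.

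Other Dnm2SL mice that stood apart were mouse 3 for *Acadvl* (409 CPM against 332 to 344) and *Pgk1* (31.0 CPM against 23.6 to 24.3), mouse 1 for *Chrna2* (0.129 CPM against 0.0380 to 0.0447), mouse 2 for *Cacng1* (573 CPM against 272 to 322) and mouse 4 for *Ace* (24.0 CPM against 42.3 to 45.9). Of the WT mice of this cohort, mouse 4 was apart for *Gm15743* (0.589 CPM against 0.205 to 0.231), *Esrrb* (14.2 CPM against 9.05 to 9.72), *Kifc3* (17.2 CPM against 13.3 to 13.8), *Psmb4* (79.2 CPM against 67.8 to 69.6), *Tmem117* (21.2 CPM against 17.8 to 18.03) and *Lgals3* (4.32 CPM against 3.30 to 3.39). WT mouse 3 was apart for *Perp* (2.24 CPM against 1.04 to 1.25) and *Krt18* (0.385 CPM against 0.109 to 0.137), and WT mouse 2 for *Traf3* (29.9 CPM against 24.0 to 24.2).

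Among the Bin1KO mice, mouse 3 was apart for *Bdh1* (58.7 CPM against 41.0 to 42.9) and *Acss1* (31.6 CPM against 47.7 to 50.02), mouse 4 for *Etfdh* (189 CPM against 236 to 243) and *Acadvl* (521 CPM against 692 to 721), mouse 2 for *Dhrs4* (42.0 CPM against 35.7 to 36.4) and mouse 1 for *Orai1* (40.2 CPM against 31.8 to 33.0). In their WT group, mouse 5 was apart for *Cacng1* (175 CPM against 249 to 263) and *Myh7* (24.4 CPM against 2.59 to 3.92), mouse 6 for *Dpt* (21.7 CPM against 29.1 to 30.4), mouse 8 for *Epas1* (264 CPM against 305 to 312) and *Psmb4* (142 CPM against 123 to 126), and mouse 7 for the mitochondrial share (7.86% against 9.44% to 9.60%).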

How the results depend on the processing

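The 86 calls kept their sign under every alternative, and 10 of them were made in each one (*Bin1*, *Cpe*, *Gdf11*, *Gstp2*, *Lpl*, *Map3k7cl*, *Tmem117*, *Traf3*, *mt-Tw* and *Gm44577*, the last in the 13 that tested it). The count moved with the tool and with single mice. It was 50 with all 28 mice in the fit (23 higher, 27 lower) and 627 with DESeq2 (350 and 277), and lay between 68 and 121 under the other settings. In the *Xist* libraries alone 15 genes were higher, and the Dnm2 effect was called for 1482. Leaving out each mouse gave 21 to 313 genes for the difference, 12 to 127 of them higher and 9 to 186 lower, 2454 to 4126 for the Dnm2 effect and 547 to 1897 for the Bin1 effect. The count for the difference passed 1.5 times its value without Dnm2SL mouse 3 (313), WT mouse 4 (147) and WT mouse 5 (162) and Bin1KO mouse 4 (137). It fell short by as much without Dnm2SL mouse 2 (39), WT mice 1, 2 and 3 (42, 24 and 33), Bin1KO mice 2 and 3 (30 and 37) and WT mice 6, 7 and 8 (41, 21 and 28). In all 16 of these fits 19 genes were called, 12 higher and 7 lower, and the cause of the moves was not tested. The mitochondrial difference lay between -10.53 and -8.474 percentage points (exact permutation p between 4.08e-04 and 0.00327).

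For the genes named, 1936 of 2449 values under alternatives stayed on their side of the threshold with the same sign, 462 lost their call, 43 gained one and 8 changed sign. The changes of sign are those of 3 genes whose difference was not called. *Rrad* had -0.1404 with thinned libraries, -0.2791 in the *Xist* libraries alone and -0.01798 to 0.4796 without 1 mouse. *Sh2d4a* ranged from -0.2578 to 0.1047 and *Sox11* from -0.4991 to 1.748 without 1 mouse. With the replicate number as a block in the Dnm2 cohort, 91 genes were called (34 higher, 57 lower), 63 of them among the 86. Same-numbered Dnm2SL and WT mice had deviations correlated by 0.20, 0.15, 0.06 and 0.03. Dnm2SL mice 1 and 2 correlated best with their own number, and mice 3 and 4 did not. These few weak values cannot tell whether the numbers pair the mice, and the main fit used no pairing. The groups of the Bin1 cohort share no numbers. Depth limits genes with a few reads a mouse in 1 group, such as *Gm15743* and *Chrna2*.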

Other observations

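Interferon-inducible genes had the highest median difference of the pathway lists, 1.08, and 0 calls by edgeR. Of 43 tested, 11 rose in the Dnm2SL mice and 1 in the Bin1KO mice, where 12.6% and 6.26% of all genes rose. None fell in either model. For the difference 15 were higher and 0 lower at an unadjusted p under 0.05, where 1183 and 1315 of all 15301 genes were. *Gm4841* stood at 23.1, 16.7, 4.22 and 758 CPM in the Dnm2SL mice against 1.46 to 3.21 CPM in WT, so its value rests on 1 mouse, and without that mouse its difference was 3.34 (edgeR adjusted p = 0.0939).

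Markers of other tissues varied widely between mice. The 7 erythrocyte markers had a median difference of -2.16 and were lower at an unadjusted p under 0.05 for 7, with 0 calls, at summed levels of 334.8 to 845.2 CPM in the Dnm2SL mice against 361.4 to 1546 CPM in WT and 677.2 to 1987 CPM in the Bin1KO mice against 250.9 to 749.6 CPM in WT. The 9 adipocyte markers had a median difference of -2.66 with 0 calls and 1 lower at an unadjusted p under 0.05, and their median effect was 0.59 in the Dnm2SL mice (0 rose and 1 fell) and 3.39 in the Bin1KO mice (2 rose and 1 fell). They summed to 866.6 to 2173 CPM against 2599 to 4087 CPM in the Dnm2 cohort and 1345 to 2536 CPM against 1863 to 4409 CPM in the Bin1 cohort. *Car3*, which muscle fibers also express, made up most of these sums and fell in both models (1079 to 2224 CPM in the Bin1KO mice against 1599 to 4138 CPM in WT), while *Cfd* rose in the Bin1KO mice (21.5 to 71.3 CPM against 2.23 to 3.76 CPM), so the sums run the other way from most of the list. The 7 tendon markers had a median difference of 1.72, 2 of them higher at an unadjusted p under 0.05 and 0 called, and summed to 258.5 to 497.1 CPM against 46.64 to 259.3 CPM in the Dnm2 cohort and 104.8 to 1051 CPM against 95.21 to 227.3 CPM in the Bin1 cohort. Their part in other differences was not tested.

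Macrophage and leukocyte markers rose in both models, 12 of 16 in the Dnm2SL mice and 11 of 16 in the Bin1KO mice. Of all genes tested, 12.6% and 6.26% rose. These markers held 0 calls for the difference and 2 lower at an unadjusted p under 0.05, with a median difference of -0.38. They summed to 139.6 to 553.1 CPM against 98.68 to 161.9 CPM and to 224.3 to 452.5 CPM against 77.17 to 118.8 CPM. In the Dnm2SL mice 1 of the 6 satellite cell markers rose and 2 fell, in the Bin1KO mice 2 fell, and of the 8 Schwann cell markers 0 were called in any contrast.

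Further pathway lists held 0 calls for the difference. Beside their counts, 12.6% of all genes tested rose and 12.1% fell in the Dnm2SL mice. The shares were 6.26% and 3.67% in the Bin1KO mice. Membrane repair and calcium-binding proteins rose in both models, 14 of 27 in the Dnm2SL mice with 3 lower, and 13 with 0 lower in the Bin1KO mice (median difference -0.09, 3 higher and 4 lower at an unadjusted p under 0.05). Heat shock proteins and chaperones rose for 7 of 26 with 2 lower and for 4 with 0 lower (median difference 0.05, 4 and 1). Genes of the sarcomere and Z-disc rose for 11 of 37 with 5 lower and for 8 with 2 lower (median difference -0.07, 1 and 4). Autophagy and lysosome genes rose for 10 of 37 with 3 lower and for 5 with 2 lower (0.05, 3 and 2), and stress response genes of the unfolded protein response for 6 of 28 with 2 lower and for 6 with 1 lower (-0.03, 3 and 2). Cell cycle genes rose for 2 of 29 with 1 lower in each model (-0.11, 1 and 1), and clock genes fell for 3 of 19 with 1 higher and for 1 with 0 higher (0.05, 0 and 0).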
